A study of Arabidopsis thaliana with 9 samples.

Results

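Shoots of Arabidopsis thaliana seedlings that had passed through 4 cold cycles were compared with shoots of unchilled seedlings, gene by gene. A gene entered the comparison if its level was at least 1 FPKM (fragments counted on a gene, divided by its length and by library depth) in at least 3 of the 6 libraries of both groups. This held for 17474 of the 25320 genes listed, of which 17384 lie in the nucleus, 75 in the chloroplast and 15 in the mitochondrion. At the limit itself, ranked by the lowest of a gene's best 3 libraries, AT1G67035 lay just inside at 1.0 FPKM and WIP3 just outside at 0.9999 FPKM. All plants were labelled as wild type, with no ecotype named, grown in soil to 2 weeks, and the tissue was stem and leaf together. The 3 control libraries are from day 0, at room temperature or before stress. The 3 libraries of the 4-cycle group are from day 4, each cycle being 6 h of cold at 4 °C followed by 18 h of room temperature. Another 3 libraries, from day 1, had 1 such cycle. They serve for the contrast with the 4-cycle group and also enter the shared spread of each gene, on which standard errors and p-values against control rest. The treatment text adds 6 h at 0 °C after the cycles and does not say whether tissue was taken before or after that step, and no hour of sampling is given. Days, plant age and number of cycles differ together between the groups and cannot be told apart. Hour of sampling and temperature at harvest may also differ from control, and cannot be separated from these either. Nothing in the labels says whether the libraries of a group come from separate plants or pots, and p-values therefore reflect only how far these libraries spread, which may be technical. The series is about low temperature memory and the chromatin mark H3K4me3, which is not analysed here, and the contrast of 4 cycles with control asks which transcripts differ after repeated cold.

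Cold is known to raise the CBF transcription factors of Arabidopsis within hours, and these bind the CRT/DRE sequence before many cold-regulated genes. Leaves in the cold change membrane lipids, stored sugars and photosynthetic proteins, a set of changes known as cold acclimation. Many of the same genes are also under the circadian clock, whose morning factors CCA1 and LHY bind the evening element of evening genes, and under light and sugar status.

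The libraries held 17.98 to 21.49 M reads, as implied by the steps of the low FPKM values. At such depth genes near 1 FPKM rest on 32 reads in the median, for which counting error alone is 17.7%. On the first principal component, with 65.5% of the variance, control libraries lay between -68.94 and -64.72, 4-cycle libraries between 22.59 and 28.02 and 1-cycle libraries between 38.51 and 47.5. Leaf markers were high in all 6 libraries (RBCS1A at 6810 FPKM or more), and the stem vessel genes CESA4, CESA7, CESA8, XCP1 and XCP2 were detected at 1.15 FPKM or more with none called different. Flower markers set some libraries apart: the sum of 12 floral genes was 9.93, 25.8 and 46.7 FPKM in control and 1.2, 33.8 and 1.66 FPKM in the 4-cycle group. Of 5 root markers listed, IRT1, PRP3, COBL9 and WOX5 stayed at or below 0.311 FPKM, while SCR, which also acts in leaves, rose from 10.3, 7.81 and 9.17 FPKM to 22.4, 14 and 23.9 FPKM. The 5 seed markers listed stayed at or below 0.668 FPKM. Total calls, counts of list members and calls of named genes were therefore also taken without the 3 libraries highest in floral markers. These are control replicates 2 and 3 and 4-cycle replicate 2. Other counts, such as those of organelle and non-coding RNA genes, and motif shares were not taken this way. The step was chosen after seeing the data and is called the floral check. It leaves 1 control library, which is assumed to vary like the other groups, so a call lost in it need not mean a smaller difference.

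The promoters of the 3 genes with the largest rises and the 3 with the largest falls are shown because they open the description of the response. Each is the 250 bases before the gene start, 5′ to 3′ on the gene's own strand, from the TAIR10.1 reference genome of RefSeq, whose gene starts and ends equal those of the table for 99.98% of loci. Capitals mark 7 short motifs searched on both strands: the evening element AAAATATCT, the CRT/DRE core CCGAC, the G-box CACGTG, the W-box TTGACC, the CAMTA box CCGCGT, the telo box AAACCCTA and the site II motif TGGGCC.
RVE2 (chr5:14753089-14753338, minus strand): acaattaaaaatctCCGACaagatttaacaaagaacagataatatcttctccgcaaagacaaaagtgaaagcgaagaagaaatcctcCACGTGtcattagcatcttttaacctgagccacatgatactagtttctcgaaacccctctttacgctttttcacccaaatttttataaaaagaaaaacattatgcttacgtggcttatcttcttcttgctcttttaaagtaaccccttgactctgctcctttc
AT4G18422 (chr4:10176639-10176888, minus strand): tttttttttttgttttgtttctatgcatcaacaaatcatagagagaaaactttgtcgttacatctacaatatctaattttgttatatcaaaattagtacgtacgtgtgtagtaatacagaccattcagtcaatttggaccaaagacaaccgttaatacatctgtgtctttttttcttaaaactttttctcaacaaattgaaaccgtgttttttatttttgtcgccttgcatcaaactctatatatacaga
CBF2 (chr4:13016236-13016485, minus strand): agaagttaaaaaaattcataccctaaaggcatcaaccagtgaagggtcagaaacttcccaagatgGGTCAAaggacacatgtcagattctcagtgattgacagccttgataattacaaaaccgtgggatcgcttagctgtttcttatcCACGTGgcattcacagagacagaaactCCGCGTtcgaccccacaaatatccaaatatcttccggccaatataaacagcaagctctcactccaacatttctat
PDF1.2b (chr2:11088873-11089122, plus strand): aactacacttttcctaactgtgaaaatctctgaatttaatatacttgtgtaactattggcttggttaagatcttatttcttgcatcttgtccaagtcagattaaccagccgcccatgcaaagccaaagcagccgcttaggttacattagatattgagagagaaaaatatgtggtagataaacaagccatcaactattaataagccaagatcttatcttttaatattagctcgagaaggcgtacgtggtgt
PDF1.2c (chr5:17909508-17909757, minus strand): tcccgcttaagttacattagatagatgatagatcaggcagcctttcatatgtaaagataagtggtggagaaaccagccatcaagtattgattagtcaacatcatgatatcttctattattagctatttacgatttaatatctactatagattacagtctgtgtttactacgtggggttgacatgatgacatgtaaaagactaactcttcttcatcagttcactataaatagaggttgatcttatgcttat
AT1G15125 (chr1:5204062-5204311, plus strand): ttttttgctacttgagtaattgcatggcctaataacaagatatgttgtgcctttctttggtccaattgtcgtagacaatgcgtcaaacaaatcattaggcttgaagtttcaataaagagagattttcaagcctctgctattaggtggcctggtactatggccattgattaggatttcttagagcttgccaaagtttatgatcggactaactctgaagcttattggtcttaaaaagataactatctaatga
In the RVE2 promoter a CRT/DRE core began 236 bases and a G-box 163 bases before the start. The CBF2 promoter held a W-box on the other strand beginning 185 bases, a G-box 102 bases and a CAMTA box 75 bases before the start. None of the 7 motifs stood in the windows of AT4G18422, PDF1.2b and PDF1.2c. AT1G15125 had an evening element on the other strand whose first base is the 15th of the gene, just past the stretch shown. A match is only a match of letters, and among all 27443 promoters of protein-coding nuclear genes 2.82% held the evening element, 15% the CRT/DRE core, 7.68% the G-box, 14.2% the W-box, 2.27% the CAMTA box, 6.22% the telo box and 15.5% the site II motif in a window of 300 bases (250 before and 50 after the start).

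A large share of the genes differed after 4 cycles, and more were lower than higher. By limma's moderated test on log2(FPKM + 1), with Benjamini-Hochberg adjustment over all genes tested, 6989 of 17474 genes were called at an adjusted p under 0.05, which is 40.0%. Of these 2556 were higher (14.6% of genes tested) and 4433 lower (25.4%), so that 63.4% of the calls were lower. Counts of list members below stand against these shares of all genes. The direction of that balance rests on scaling: median-of-ratios scaling gave 3423 higher and 3355 lower genes (49.5% lower), and quantile normalization 3376 and 3594 (51.6% lower). The median gene lay at -0.10 on the log2 scale with FPKM as deposited and at 0.00 under either scaling, so list medians are given relative to that of all genes. Libraries of both groups did not overlap for 8882 genes (50.8%), of which 6870 were called. Most calls were small, with a median absolute log2 difference of 0.68. A log2 difference of at least 1 was reached by 772 higher and 1074 lower genes, of at least 2 by 180 and 198, of at least 3 by 53 and 36 and of at least 4 by 22 and 8. Genes called higher had a median level of 13 FPKM in control and 24.8 FPKM after 4 cycles, and genes called lower 14.5 and 7.99 FPKM. The floral check gave 3273 calls, 1514 higher and 1759 lower, and all 6989 genes kept their direction in it. Keeping direction was fixed in advance for the 6870 called genes without overlap, since leaving out libraries cannot turn their order. RNA here comes from whole shoots, so fewer cells of a type and less RNA per cell cannot be told apart.

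**Figure D1:**
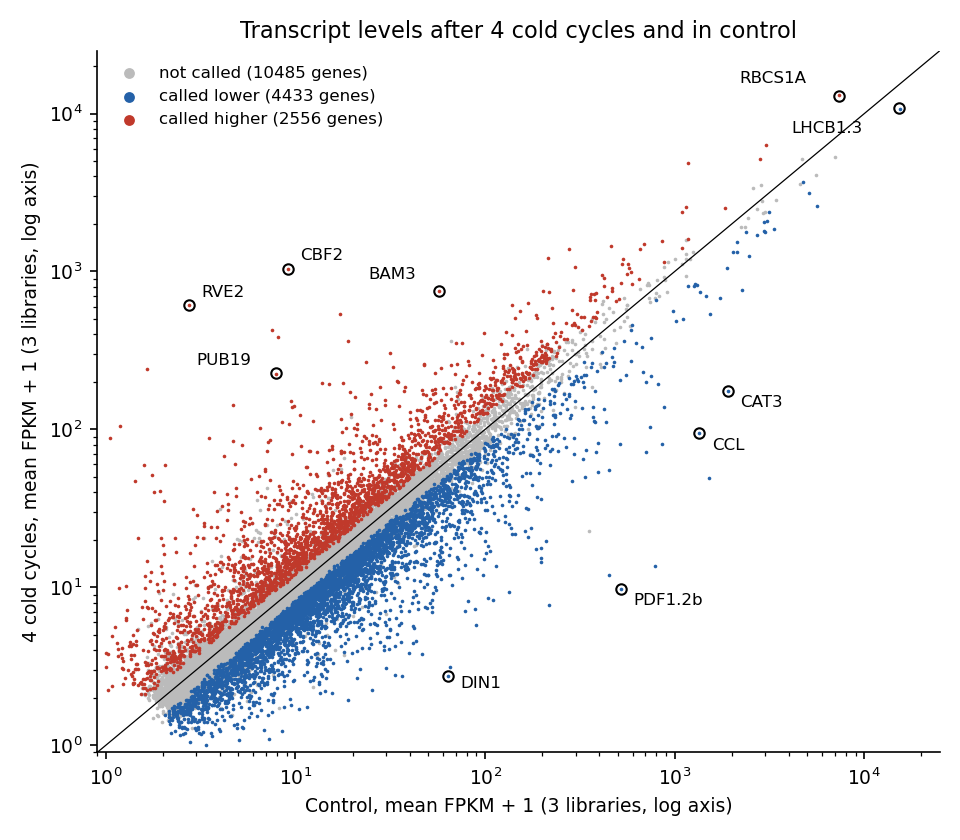
Mean level of each of the 17474 genes tested in control (horizontal axis) and after 4 cold cycles (vertical axis), as FPKM + 1 on log axes, 3 libraries a group; the line marks equal levels. RVE2, CBF2, PUB19 and BAM3 stand far above the line, CAT3, CCL, PDF1.2b and DIN1 far below it, and the abundant RBCS1A and LHCB1.3 close to it on opposite sides.

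The largest rises were those of transcription factors, CBF and MYB-like factors among them, and of a few other genes. RVE2, a MYB-like factor of the family of CCA1 and LHY, had 1.71, 2.09 and 1.45 FPKM in control and 548, 681 and 603 FPKM after 4 cycles. AT4G18422, for an uncharacterized protein, was at 0.761, 0.306 and 0.87 FPKM in control and at 204, 308 and 213 FPKM. CBF2, a cold-induced activator, stood at 6.23, 8.04 and 9.97 FPKM and at 990, 1160 and 966 FPKM. No 4-cycle library of these genes came near a control library, and the log2 differences were 7.80 ± 0.12 (SE), 7.2 ± 0.20 and 6.86 ± 0.19 with 3 libraries a group (adjusted p = 2.37e-09, 1.1e-07 and 1.1e-07). CBF4, another member of the CBF family, and AT1G26790, for a Dof-type zinc finger protein, were listed at 0 in control replicates 1 and 2 and reached at least 80.2 and 62.9 FPKM in the 4-cycle libraries. CBF3 (DREB1A, which overlaps AT4G07385 on the other strand), CBF1 and the morning clock gene LHY followed, with log2 differences of 5.80 ± 0.16, 5.57 ± 0.37 and 4.93 ± 0.18. The remaining 4 of the 12 largest rises were of other kinds. AT5G15950 (chromosome 5, 5205869 to 5208036), for S-adenosylmethionine decarboxylase of polyamine synthesis, went from 18.5, 10.6 and 19.3 FPKM to 609, 443 and 562 FPKM, 33.3-fold higher in the mean. PUB19 (chromosome 1, 22198266 to 22200687), a U-box ubiquitin ligase, went from 7.61, 2.74 and 10.2 FPKM to 288, 184 and 203 FPKM (4.96 ± 0.49, adjusted p = 9.02e-05). AT4G27360, of the dynein light chain family, rose to 44.2, 49.6 and 44 FPKM from at most 0.524 FPKM, and AT1G70640, with a PB1 domain, to 48.7, 60.6 and 67.3 FPKM from at most 0.997 FPKM. All 12 kept their calls without any single library and in the floral check.

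Among the 12 largest falls, most defence genes varied widely between control libraries, and 4 other genes less so. The defensins PDF1.2b, PDF1.2c and PDF1.2, small antifungal proteins of the jasmonate and ethylene response, were lowest in control replicate 1 (111, 122 and 372 FPKM) and highest in control replicate 2 (819, 1470 and 2600 FPKM). After 4 cycles they lay between 5.53 and 12.8, 10.5 and 16.2, and 29.8 and 70.3 FPKM. Genes were named here only if control and 4-cycle libraries did not overlap. The defensins had standard errors of 1.17, 1.53 and 1.17 on log2 differences of -5.37, -5.27 and -4.62 (limma adjusted p = 0.00621, 0.0224 and 0.0125). These errors rest on the spread shared by all groups, and the 1-cycle libraries also spread widely. After 1 cycle PDF1.2b was at 190, 17.6 and 652 FPKM, PDF1.2c at 174, 5.88 and 844 FPKM and PDF1.2 at 486, 40.3 and 1480 FPKM. The putative beta-1,3-glucanase gene AT4G16260 went from 78, 273 and 296 FPKM to at most 9.13 FPKM, and the vegetative storage protein VSP1 from 88.7, 107 and 200 FPKM to 5.95, 18.2 and 1.08 FPKM. AACT1, annotated as an anthocyanin acyltransferase, was at 19.2, 111 and 61.4 FPKM and then at most 4.26 FPKM. Control replicate 1, the lowest of the controls for all 6 of these genes, was also the control library with the lowest sum of flower markers. The other groups did not share this order. After 1 cycle all 6 genes were highest in replicate 3, with a floral sum of 5.69 FPKM, against 8.23 FPKM in replicate 2. In the 4-cycle group only VSP1 and AACT1 were highest in replicate 2, the library with the highest sum (33.8 FPKM). A link was not tested. PDF1.2b, PDF1.2c, PDF1.2, AT4G16260, VSP1 and AACT1 lost their calls in the floral check (adjusted p between 0.155 and 0.454). So did MBP1, a myrosinase-binding protein that fell from 251, 145 and 189 FPKM to 20.4, 12.1 and 7.94 FPKM (0.129), and AT1G15125 (0.0572), a methyltransferase gene that overlaps AT1G15120 on the same strand. The call of PDF1.2c also ended on leaving out control replicate 2 or 3 or 4-cycle replicate 2 or 3 (adjusted p up to 0.0748), AACT1 without control replicate 2 or 3 or 4-cycle replicate 1 or 3 (up to 0.0677) and VSP1 without 4-cycle replicate 3 (0.05). By contrast DIN1 (chromosome 4, 16944878 to 16946266), a dark-inducible senescence gene, went from 52, 90.5 and 46 FPKM to 1.6, 1.59 and 2.08 FPKM, 35.8-fold lower. CCL, for a CCR-like protein under clock control, went from 1200, 1480 and 1350 FPKM to 88.1, 98.4 and 93.2 FPKM (-3.83 ± 0.11, adjusted p = 1.1e-07). AT5G19120, of the aspartyl protease family, fell by 3.96 ± 0.28 and MEE14 by 3.75 ± 0.29, and these 4 kept their calls without any single library and in the floral check.

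In FPKM gained or lost, photosynthesis genes led in both directions. Of the 8 largest gains 7 were of the Calvin cycle: the Rubisco small subunit genes RBCS1A, RBCS2B, RBCS3B and RBCS1B, the Rubisco activase RCA, the aldolase FBA2 and the dehydrogenase subunit GAPA. RBCS1A went from 6810, 8060 and 7290 FPKM to 11500, 14300 and 13300 FPKM, and RBCS1B from 226, 328 and 271 FPKM to 1260, 1440 and 1450 FPKM. RBCS1B and RBCS2B, the lower of the 4 in level, gained more in proportion than RBCS1A (2.34 ± 0.14 and 2.06 ± 0.15 against 0.82 ± 0.14), although near-identical copies can share reads and their levels are uncertain, as are those of the LHCB1 and CAB copies. RCA was at 2930 to 3350 FPKM in control and 6050 to 6610 FPKM after 4 cycles, and FBA2 at 1150 to 1160 and 2420 to 2660 FPKM. The 8 largest losses included antenna and photosystem I genes: CAB3, an antenna protein of photosystem II, fell by 1.11 ± 0.20, LHCA1, an antenna protein of photosystem I, by 0.71 ± 0.15, and PSAO, a subunit of photosystem I, by 0.86 ± 0.16. LHCB1.3, the most abundant at 15800, 15500 and 14700 FPKM in control and 9120, 10500 and 12700 FPKM after 4 cycles, was called (-0.52 ± 0.14, adjusted p = 0.0176) but not without control replicate 1 (0.0533) or with median-of-ratios scaling. CAT3 (chromosome 1, 7142972 to 7146540), a catalase, went from 1880, 1880 and 1980 FPKM to 184, 157 and 183 FPKM, 10.9-fold lower with almost no spread in either group. PRXR1, a class III peroxidase, fell from 2120 to 2440 FPKM in control to 672 to 872 FPKM. RBCS1A and LHCB1.3 lost their calls in the floral check (adjusted p from 0.0545 to 0.198). RCA and LHCB1.3 overlap genes on the other strand. GAPA overlaps a gene on the same strand.

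Most genes listed as acting with the clock were higher. Of 16 tested genes that act with the clock or take its output, 13 were called higher and 1 lower, with a median 1.81 above that of all genes. LNK3 (chromosome 3, 3923515 to 3925502), of a family of coactivators of morning clock factors, was at 26.2, 29 and 25.1 FPKM in control and at 191, 185 and 179 FPKM after 4 cycles. Its relative LNK4 rose by 1.98 ± 0.12, and the Dof factors CDF1 and CDF3, which repress flowering, by 2.26 ± 0.12 and 1.67 ± 0.11. LNK3 overlaps AT3G12340 on the other strand and LNK4 overlaps AT5G06990 on the same strand. How strand was used in counting is not given in the sources used here, so the reads of such pairs, named below as overlapping genes, cannot be told apart. The single lower call of the list was LWD1, a WD-repeat clock protein, from 14.1 to 17.6 FPKM to 9.39 to 10.1 FPKM (-0.68 ± 0.11). The floral check gave 11 higher and 0 lower clock genes. LWD1 lost its call in it (adjusted p = 0.0697). Clock-related genes outside the list went both ways. The clock gene LHY and its relative RVE2 rose by 4.93 ± 0.18 and 7.80 ± 0.12. The clock-controlled CCL fell by 3.83 ± 0.11, GRP8 by 2.08 ± 0.18 and its relative GRP7 by 1.3 ± 0.27. GRP7 lost its call in the floral check.

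Among 11 genes of light stress and its dissipation, 8 were higher and 1 lower, against 14.6% higher and 25.4% lower among all genes tested. ELIP2 (chromosome 4, 8418242 to 8419325) and ELIP1, early light-induced proteins that bind chlorophyll under stress, went from at most 0.988 and 3.33 FPKM to 41.3 to 55.8 and 79 to 98.8 FPKM (log2 differences of 4.86 ± 0.19 and 4.66 ± 0.22). NPQ4, the PsbS protein of energy quenching, rose by 1.08 ± 0.12, and NPQ1, violaxanthin de-epoxidase, fell by 1.1 ± 0.14. Counts in the floral check were 6 higher and 0 lower light stress genes. NPQ1 lost its call in it (adjusted p = 0.0517). NPQ1 overlaps a gene on the other strand.

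All tested starch breakdown genes were called, most of them lower. Of 19 genes 5 were higher and 14 lower, with a median 0.95 below that of all genes. The 5 higher genes were beta-amylases: BAM3 (chromosome 4, 9604962 to 9607402), the main plastid enzyme of cold leaves, went from 49.9, 59.8 and 58.3 FPKM to 788, 714 and 746 FPKM (3.72 ± 0.11), and BAM9, a noncatalytic relative, from 10.5 to 12.8 FPKM to 76.5 to 139 FPKM (3.15 ± 0.32). BAM2 rose by 0.91 ± 0.16, while the calls of BAM6 and BAM1 (adjusted p = 0.0374 and 0.0419) were lost without any 1 of several libraries, and 3 genes were higher without control replicate 2 or 3 or 4-cycle replicate 1. The other beta-amylases tested, named after their values were seen, were lower: BAM5 went from 13.1, 9.15 and 21.7 FPKM to 1.73, 1.37 and 0.346 FPKM, the largest fall of the list (-2.85 ± 0.53), and BAM4, another noncatalytic relative, fell by 1.05 ± 0.10. The remaining 12 lower genes act at other steps. The disproportionating enzymes DPE1, in the plastid, and DPE2, in the cytosol, went from 31 to 37.2 and 87.2 to 117 FPKM to 4.04 to 5.62 and 15.3 to 19.9 FPKM (-2.62 ± 0.12 and -2.51 ± 0.14). AMY3, an alpha-amylase, fell by 2.49 ± 0.14 and PHS1, a plastid starch phosphorylase, by 2.68 ± 0.20. Median-of-ratios scaling gave 5 higher and 12 lower genes. This became 3 higher and 12 lower starch genes in the floral check. BAM5, BAM6 and BAM1 lost their calls in it (adjusted p from 0.096 to 0.633). BAM3, BAM4, BAM9, BAM2, BAM6 and PHS1 overlap genes on the other strand.

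Of 8 genes of galactinol and raffinose, sugars that protect cells in the cold, 4 were higher and 1 lower. Among all genes tested 14.6% were higher and 25.4% lower. The inositol phosphate synthases MIPS1 and MIPS2, which make the precursor, rose by 1.13 ± 0.14 and 0.94 ± 0.14, and the raffinose synthase gene AT5G40390 from 12.9, 7.4 and 11 FPKM to 17.8, 18.4 and 19.2 FPKM. The galactinol synthases parted: GOLS3 was at 2.23, 1.77 and 3.36 FPKM and then 3.88, 10.6 and 12.6 FPKM (1.43 ± 0.39, adjusted p = 0.0165), and GOLS2 at 46.1, 28.1 and 37.9 FPKM and then 15.6, 17.9 and 5.37 FPKM (-1.58 ± 0.37). The call of GOLS3 was lost without control replicate 2 or 4-cycle replicate 2 or 3 (adjusted p up to 0.0596). There were 1 higher and 0 lower galactinol and raffinose genes in the floral check. MIPS2, AT5G40390, GOLS3 and GOLS2 lost their calls in it (adjusted p from 0.053 to 0.226). MIPS2 overlaps a gene on the other strand.

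Genes of darkness and sugar starvation were low after 4 cycles. Of 21 tested 16 were lower and 1 higher, with a median 1.01 below that of all genes and the same counts under median-of-ratios scaling and quantile normalization. Besides DIN1, KMD1 (chromosome 1, 30241452 to 30243176), a Kelch F-box protein that degrades cytokinin response regulators, went from 177, 194 and 181 FPKM to 15.9, 14.8 and 18.8 FPKM, 11.1-fold lower. TPS11, a trehalose phosphate synthase-like protein, fell by 2.07 ± 0.19 and GDH1, a glutamate dehydrogenase, by 2.01 ± 0.19. The higher call, DIN9 (adjusted p = 0.033), was lost without control replicate 2 or 3 or 4-cycle replicate 1 or 3 (up to 0.108). The floral check gave 0 higher and 9 lower starvation genes. DIN9 lost its call in it (adjusted p = 0.254). GDH1 overlaps a gene on the other strand.

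**Figure D2:**
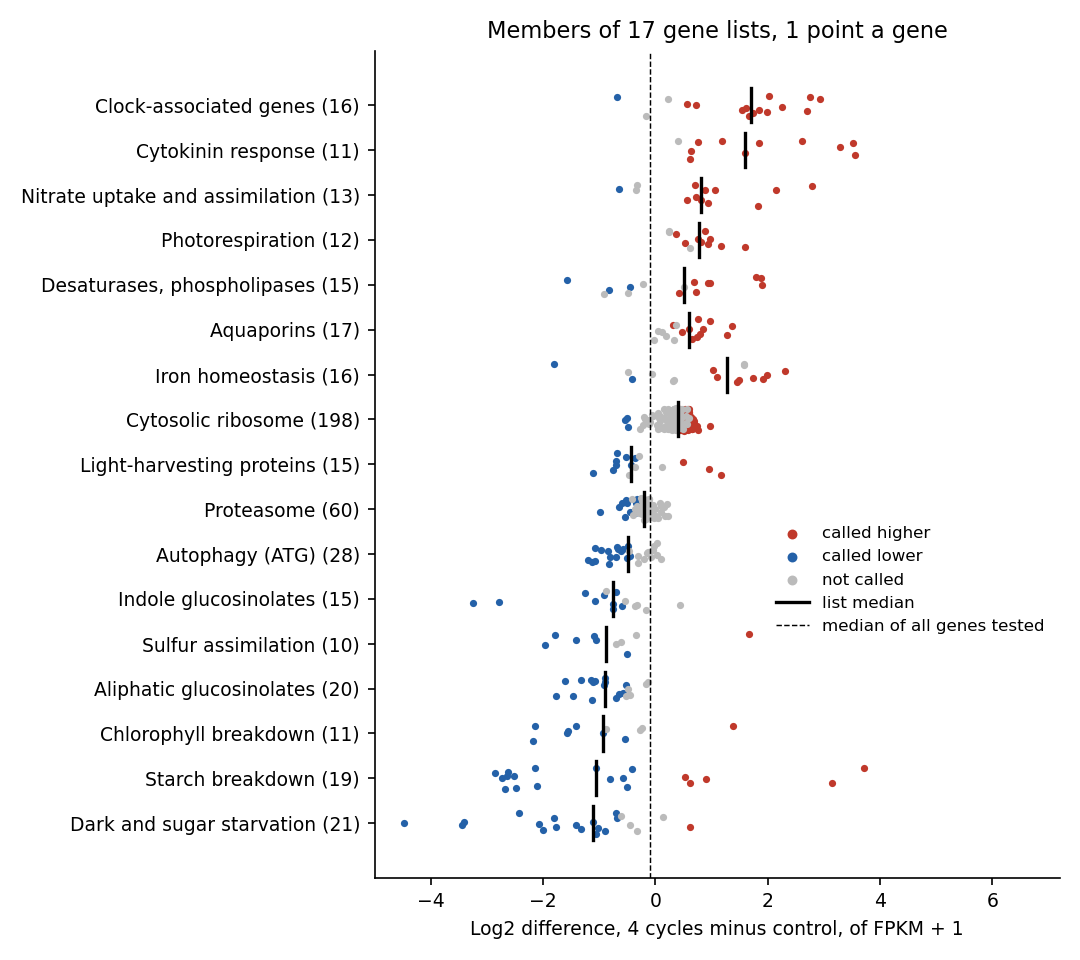
Log2 difference of each tested member of 17 gene lists, 4 cycles minus control; a point is a gene, coloured by its call, the bar is the list median and the dashed line the median of all genes (-0.10). Clock-associated and cytokinin genes lie to the right, with medians 1.81 and 1.7 above all genes, and starch breakdown and starvation genes to the left, apart from BAM3 and BAM9.

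Glucosinolates, the sulfur-rich defence compounds of the cabbage family, had lower transcripts along both branches. Of 20 aliphatic genes 15 were lower and none higher (0 also at an unadjusted p under 0.05), with a median 0.79 below that of all genes. BCAT4 (chromosome 3, 6846969 to 6849582) and MAM1, which start the lengthening of methionine, went from 193 to 247 and 233 to 325 FPKM to 57.8 to 98.8 and 62.4 to 120 FPKM (-1.61 ± 0.22 and -1.77 ± 0.25). IMD1, of the same chain elongation, fell by 1.47 ± 0.22 and GSTU20 by 1.13 ± 0.18. Of 15 indole glucosinolate and myrosinase genes 9 were lower and none higher (0 at an unadjusted p under 0.05). IGMT1, an indole glucosinolate methyltransferase, went from 21.5, 39 and 26.3 FPKM to 1.69, 2.45 and 2.06 FPKM, 14-fold lower, and CYP81F2, which acts just before it, from 23, 35.8 and 26.6 FPKM to 3.67, 3.84 and 2.23 FPKM. TGG2, a myrosinase, fell by 1.07 ± 0.14 and ESP, which directs breakdown to nitriles, by 0.75 ± 0.15. Counts in the floral check were 0 higher and 7 lower aliphatic genes and 0 higher and 3 lower indole genes. CYP81F2 lost its call in it (adjusted p = 0.0754). List medians relative to all genes were -0.79 and, in the floral check, -0.91 for aliphatic genes, and -0.64 and -0.57 for indole genes. BCAT4 and IMD1 overlap genes on the other strand.

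Sulfur genes were mostly lower as well. Of 10 genes of sulfate reduction and its deficiency response 6 were lower and 1 higher, with a median 0.78 below all genes. The APS reductases APR1 and APR3 fell by 1.42 ± 0.25 and 1.1 ± 0.15, whereas the third, APR2, rose from 27.5, 22.2 and 24 FPKM to 70.8, 85.2 and 85.8 FPKM (1.67 ± 0.15). The deficiency markers LSU1 and AT1G04770 fell by 1.96 ± 0.18 and 1.79 ± 0.20. This became 1 higher and 5 lower sulfur genes in the floral check. APR1 lost its call in it (adjusted p = 0.057). APR2, AT1G04770, APR3 and APR1 overlap genes on the other strand.

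Calls among genes of lipid desaturation were mostly higher. Of 15 genes of fatty acid desaturation and membrane remodelling 8 were higher and 3 lower, with a median 0.62 above all genes. FAD4 (chromosome 4, 13571813 to 13573070), the desaturase of plastid phosphatidylglycerol, went from 9.65, 9 and 8.72 FPKM to 32.4, 38.1 and 39.3 FPKM. The plastid omega-3 desaturases FAD8, known for its response to low temperature, and FAD7 rose by 1.8 ± 0.11 and 0.94 ± 0.09, and SLD1, a sphingolipid desaturase of the endoplasmic reticulum, by 0.97 ± 0.09. FAD2 and FAD3, fatty acid desaturases of the endoplasmic reticulum, fell by 0.83 ± 0.14 and 0.46 ± 0.10, and PLDDELTA, a phospholipase D, from 33.3 to 40.3 FPKM to 10.6 to 13.1 FPKM. Of 16 wax and cutin genes 6 were higher and none lower (1 lower at an unadjusted p under 0.05, 1 under quantile normalization and 1 without control replicate 1 or 2). The fatty acid elongase KCS1 rose from 12.2 to 16.1 FPKM to 35 to 53.7 FPKM and CER1, of alkane formation, by 1.08 ± 0.24. There were 7 higher and 1 lower desaturation genes and 4 higher and 0 lower wax genes in the floral check. FAD2 and FAD3 lost their calls in it (adjusted p from 0.0895 to 0.172). FAD4 and FAD8 overlap genes on the other strand.

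Photorespiration, which recovers carbon from the oxygenase reaction of Rubisco, had 9 of 12 genes higher and none lower (0 at an unadjusted p under 0.05), with a median 0.89 above all genes. The glycolate oxidases GOX1 and GOX2 went from 561 to 576 and 303 to 305 FPKM to 1050 to 1200 and 509 to 580 FPKM. HPR, hydroxypyruvate reductase, rose by 0.94 ± 0.12 and GLDP2, of glycine decarboxylase, by 1.59 ± 0.21. The floral check gave 7 higher and 0 lower photorespiration genes. GOX1 overlaps a gene on the other strand.

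Of 17 chlorophyll synthesis genes 7 were higher, 2 lower and 8 not called. CHLI1 and CHLH, subunits of magnesium chelatase, rose by 0.69 ± 0.10 and 0.94 ± 0.17 and CHLG, chlorophyll synthase, by 0.69 ± 0.10. The 2 lower genes were protochlorophyllide oxidoreductases: PORB (chromosome 4, 13725546 to 13727440) went from 686, 844 and 699 FPKM to 82.6, 93.3 and 134 FPKM, 7.2-fold lower, and PORA from 21.6, 42.8 and 32.5 FPKM to 1.15, 2.58 and 1.68 FPKM. PORC, an enzyme of the same step named after its value was seen, was called higher (0.41 ± 0.12, adjusted p = 0.0266), but not without control replicate 1 or 3 or 4-cycle replicate 2 or 3 (up to 0.086) or with quantile normalization. The count of higher genes was 4 without control replicate 1 and 3 without control replicate 3 or 4-cycle replicate 3. Chlorophyll breakdown had 7 of 11 genes lower and 1 higher. ORE1 and NAP, NAC factors that promote leaf senescence, fell by 2.18 ± 0.11 and 2.15 ± 0.21, and the breakdown enzymes NYC1 and PPH by 1.55 ± 0.12 and 1.58 ± 0.14. HCAR, which turns chlorophyll b toward a, rose from 6.33 to 6.51 FPKM to 16.4 to 20 FPKM. Of 6 nuclear sigma factors of the plastid RNA polymerase 4 were higher and none lower (0 at an unadjusted p under 0.05), SIG6 by 0.87 ± 0.11 and SIG5, which responds to light and stress, by 1.21 ± 0.21. Of 75 chloroplast-encoded genes tested 12 were called higher and none lower, and of 15 mitochondrial genes 3 lower and none higher, against 14.6% higher and 25.4% lower among all genes tested. Light-harvesting genes gave 3 higher and 8 lower of 15, with 5 lower under median-of-ratios scaling or without control replicate 1. LHCA2 and LHCA3, antenna genes of photosystem I, fell by 0.76 ± 0.13 and 0.70 ± 0.12, while Lhca6 and LHCB4.3 rose by 0.95 ± 0.12 and 1.17 ± 0.24. Of the minor antenna genes of photosystem II, LHCB4.2 fell by 0.69 ± 0.12, and LHCB4.1 and LHCB5, named after their values were seen, were called lower (-0.44 ± 0.13 and -0.36 ± 0.12, adjusted p = 0.0244 and 0.0382), but not under median-of-ratios scaling or without any 1 of several libraries (up to 0.0718 and 0.101). Counts in the floral check were 3 higher and 2 lower chlorophyll synthesis, 1 higher and 6 lower breakdown, 2 higher and 0 lower sigma factor genes and 1 higher and 5 lower light-harvesting genes. SIG5, LHCB4.3, PORC, LHCB4.1 and LHCB5 lost their calls in it (adjusted p from 0.0569 to 0.172). CHLI1, PORB, PORC and LHCB4.2 overlap genes on the other strand.

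Nitrate assimilation genes were mostly higher. Of 13 tested 10 were higher and 1 lower, with a median 0.92 above all genes. NIA1 (chromosome 1, 29235721 to 29239484) and NIA2, the nitrate reductases, went from 20.7, 10.7 and 17.8 FPKM and 165, 117 and 147 FPKM to 91.4, 126 and 131 FPKM and 543, 433 and 554 FPKM. The nitrate transporter and sensor NRT1.1 rose by 1.06 ± 0.12. LBD39, a repressor of nitrogen-responsive genes, rose by 2.15 ± 0.12, and its relative LBD37 was lower (-0.65 ± 0.21, adjusted p = 0.036), a call lost without each control or 4-cycle library in turn (up to 0.0925) and with median-of-ratios scaling. This became 7 higher and 0 lower nitrate genes in the floral check. LBD37 lost its call in it (adjusted p = 0.366).

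Iron genes gave 8 higher and 2 lower of 16, with a median 1.39 above all genes, although 4 were higher without control replicate 3 and 5 without control replicate 1. NAS4, a nicotianamine synthase, rose from 4.64, 5.11 and 4.98 FPKM to 19.2, 16.3 and 20.5 FPKM. The ferritins parted: FER3 went from 13.6, 15.9 and 24.2 FPKM to 40.7, 52.5 and 57.9 FPKM (1.46 ± 0.23) and FER1 from 103, 68.4 and 196 FPKM to 29.6, 42.9 and 24.3 FPKM (-1.8 ± 0.34). FRO6, a ferric reductase, was called lower (adjusted p = 0.0272) but not without control replicate 2 or 3 or 4-cycle replicate 1 or 2 (up to 0.0973) or with median-of-ratios scaling. Phosphate starvation genes gave 1 higher and 3 lower of 11, near the shares among all genes. Of these SRG3 (AT3G02040) fell by 2.38 ± 0.23 and the acid phosphatase PAP17 by 1.6 ± 0.23, whereas SPX4 and SQD1 had adjusted p of 0.0475 and 0.0181, calls lost without any 1 of several libraries (up to 0.118 and 0.0604). There were 5 higher and 1 lower iron genes and 1 higher and 1 lower phosphate genes in the floral check. FRO6, PAP17 and SPX4 lost their calls in it (adjusted p from 0.057 to 0.456). FER1, SRG3 and PAP17 overlap genes on the other strand.

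Cytokinin response genes had the second highest median of all lists described, 1.7 above all genes. Of 11 tested 10 were higher and none lower (0 at an unadjusted p under 0.05). ARR5 (chromosome 3, 17758427 to 17760950), a type-A response regulator that is induced by cytokinin and dampens its signal, went from 6.61, 5.78 and 6.59 FPKM to 81.3, 83.1 and 90.1 FPKM, 13.4-fold higher. ARR7 went from 8.04, 12.7 and 7.87 FPKM to 81.1, 164 and 122 FPKM, ARR6 from 0.861, 1.03 and 1 FPKM to 9.75, 22.1 and 26.8 FPKM, and ARR4 rose by 1.85 ± 0.12. These 4 kept their calls without any single library. The floral check gave 6 higher and 0 lower cytokinin genes. ARR6 overlaps a gene on the other strand.

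Other growth hormones were mixed, as were all genes tested (14.6% higher and 25.4% lower). Of 13 gibberellin genes 4 were higher and 6 lower: the synthesis enzyme GA3OX1 rose by 1.42 ± 0.20 and the receptors GID1C and GID1A fell by 1.44 ± 0.09 and 0.85 ± 0.11. Of the DELLA repressors GAI fell by 1.24 ± 0.12 and RGL3 by 1.24 ± 0.24, while RGA1 rose by 0.49 ± 0.12. The rises of the degrading enzymes GA2OX2 and GA2OX6 (adjusted p = 0.0242 and 0.0492) were lost without control replicate 1 or 4-cycle replicate 1, the count of higher genes then being 2. Brassinosteroid genes gave 1 higher and 4 lower of 10, the higher one, the response factor BES1 (adjusted p = 0.0364), losing its call without any 1 of several libraries (up to 0.117). The synthesis enzymes DET2 and CPD fell by 1.40 ± 0.18 and 1.08 ± 0.16, and without control replicate 1 or 3 only these 2 of the 4 were called lower. Of 21 Aux/IAA genes, auxin-induced repressors, 8 were higher and 3 lower. IAA17 (AXR3) went from 14.8, 12.7 and 10.3 FPKM to 31, 55.8 and 31.9 FPKM, IAA12 rose by 1.06 ± 0.12, and IAA16 and IAA29 fell by 0.64 ± 0.13 and 1.44 ± 0.34. Without control replicate 3 the number of higher genes was 5. SAUR genes, small auxin-induced growth genes, gave 9 higher and 15 lower of 41, but 11 and 10 under median-of-ratios scaling and 8 lower without control replicate 2. SAUR79 had the largest rise, from 0.76, 1.27 and 3.57 FPKM to 30.2, 43 and 17.3 FPKM, and SAUR33 the largest fall, from 8.98, 13.3 and 9.22 FPKM to 1.81, 3.35 and 2.3 FPKM. Counts in the floral check were 3 higher and 3 lower gibberellin, 0 higher and 1 lower brassinosteroid, 5 higher and 2 lower Aux/IAA genes and 5 higher and 8 lower SAUR genes. RGA1, GA2OX6, RGL3, BES1 and CPD lost their calls in it (adjusted p from 0.0549 to 0.261). BES1, DET2 and CPD overlap genes on the other strand.

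Calls among cell wall and water channel genes were mostly higher. Of 20 XTH enzymes, which cut and rejoin xyloglucan, 9 were higher and 2 lower. XTH18 (chromosome 4, 14825757 to 14827211) went from 1.36, 1.26 and 1.35 FPKM to 21.4, 18.7 and 18.5 FPKM and XTH19 from at most 0.976 FPKM to 9.27 to 11 FPKM. XTH5 and XTH30 fell by 0.94 ± 0.14 and 0.82 ± 0.13. Expansins, which loosen walls, gave 5 higher and 1 lower of 18, with 3 higher without control replicate 3 and the lower call, EXPA8, lost without any 1 of several libraries. Of 17 aquaporins 11 were higher and none lower (0 at an unadjusted p under 0.05), and 7 were higher without 4-cycle replicate 3. Their median was 0.71 above all genes, and 0.73 in the floral check. PIP2A, the most abundant of those named here, went from 350, 357 and 377 FPKM to 653, 787 and 713 FPKM, RD28 (a PIP2 water channel) rose by 1.36 ± 0.19, GAMMA-TIP, of the vacuole membrane, by 1.27 ± 0.19 and PIP1;4 by 0.76 ± 0.10. This became 6 higher and 2 lower XTH, 3 higher and 0 lower expansin genes and 5 higher and 0 lower aquaporin genes in the floral check. PIP2A lost its call in it (adjusted p = 0.0504).

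Stress-related factor families moved both ways, as did all genes tested (14.6% higher and 25.4% lower). Some counts below lie near those shares, such as 8 of 48 NAC factors higher. Of 48 WRKY factors 15 were higher and 8 lower, and 9 higher without any 1 of control replicates 1, 2 or 3 or 4-cycle replicate 3. WRKY48 went from 2.96, 1.84 and 3 FPKM to 30.2, 12.4 and 26.9 FPKM and WRKY38 from 4.85, 1.3 and 2.35 FPKM to 47.9, 18.5 and 21.4 FPKM (2.96 ± 0.73). WRKY26 fell from 27.2 to 31.4 FPKM to 3.46 to 4.09 FPKM and WRKY45 by 1.94 ± 0.23. Of 48 NAC factors 8 were higher and 17 lower, and 3 to 5 were higher without control replicate 1, 2 or 3 or 4-cycle replicate 1. RD26, of the abscisic acid and drought response, went from 59.1, 39.5 and 47.9 FPKM to 11.3, 12.4 and 9.09 FPKM, NAC3 (AT3G29035) fell by 2.58 ± 0.22, and the membrane-bound NAC062 rose by 1.02 ± 0.18. Glutathione S-transferases gave 7 higher and 12 lower of 34. GSTU17 (ERD9, which overlaps AT1G10360 on the same strand) rose by 2.40 ± 0.23 and GSTF9 fell from 1340, 1790 and 1490 FPKM to 467, 644 and 495 FPKM. Calmodulins and their relatives gave 6 higher and 3 lower of 17: CAM9 rose by 1.08 ± 0.10, and CAM1 and CAM4, for conventional calmodulins, fell by 1.15 ± 0.13 and 1.20 ± 0.21. Of 20 CIPK kinases, partners of calcium sensors, 10 were higher and 6 lower. CIPK1 and CIPK7 rose by 1.33 ± 0.16 and 1.09 ± 0.15, and CIPK21 went from 48.9, 56.6 and 49.9 FPKM to 6.7, 7.15 and 10.8 FPKM. There were 1 higher and 2 lower WRKY, 1 higher and 9 lower NAC, 2 higher and 7 lower transferase, 1 higher and 3 lower calmodulin genes and 4 higher and 3 lower CIPK genes in the floral check. List medians relative to all genes were 0.29 and, in the floral check, 0.32 for WRKY, -0.21 and -0.23 for NAC, -0.38 and -0.48 for the transferases, 0.03 and -0.09 for calmodulins and 0.49 and 0.35 for CIPK genes. WRKY38 lost its call in it (adjusted p = 0.24).

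Calls among cytosolic ribosomal protein genes were mostly higher and those among autophagy genes lower. Of 198 cytosolic ribosomal protein genes 82 were higher and 3 lower, with a median 0.50 above all genes and no rise above 0.98 on the log2 scale. RPL3B rose by 0.98 ± 0.11 and RPS6 (AT4G31700) from 119, 151 and 151 FPKM to 228, 244 and 234 FPKM. This count depended on single libraries, with 33 higher without control replicate 1 and 46 without control replicate 3 or 4-cycle replicate 2 and 1 lower without control replicate 2 or 3 or 4-cycle replicate 1 or 3, against 112 higher under median-of-ratios scaling. Of 28 autophagy (ATG) genes 16 were lower and none higher (0 at an unadjusted p under 0.05), with a median 0.39 below all genes and 15 lower under median-of-ratios scaling. ATG8F, a ubiquitin-like protein of the autophagosome, went from 81.3, 97.5 and 83.9 FPKM to 40.4, 40.8 and 37.6 FPKM, and ATG8B, AtATG18a and ATG101 fell by 0.97 ± 0.10, 1.07 ± 0.14 and 0.71 ± 0.10. Of 60 proteasome genes 15 were lower, a share near the 25.4% among all genes, and none higher (1 higher at an unadjusted p under 0.05), with a median 0.10 below all genes. Counts of lower genes were 7 with median-of-ratios scaling or without control replicate 3, 8 without 4-cycle replicate 3 and 9 without control replicate 1. The base subunit RPT5B fell by 0.65 ± 0.12. The floral check gave 129 higher and 1 lower ribosomal, 0 higher and 9 lower autophagy genes and 0 higher and 2 lower proteasome genes. RPT5B lost its call in it (adjusted p = 0.0869). RPL3B and RPT5B overlap genes on the other strand.

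The remaining lists held few calls or calls in both directions, as did all genes tested (14.6% higher and 25.4% lower). Of 18 cell cycle genes none was called by limma (3 higher at an unadjusted p under 0.05), although 4 were higher without 4-cycle replicate 2, 1 without control replicate 3 and 3 under median-of-ratios scaling. Of 12 genes of protein folding in the endoplasmic reticulum none was higher and 2 were lower, the stress factors BZIP28 (-0.64 ± 0.14) and BZIP60 (adjusted p = 0.0443, up to 0.128 without 1 library). RNA chaperones gave 1 higher and 3 lower of 10 (3 higher under median-of-ratios scaling): the cold shock protein CSP1 went from 10.4, 11.2 and 10.8 FPKM to 30.6, 34.8 and 27.2 FPKM and the clock-controlled GRP8 from 254, 342 and 284 FPKM to 63.7, 76.4 and 65.4 FPKM. Of 19 SR splicing factors 2 were higher and 7 lower, among them SR45A (0.67 ± 0.17) and SR34B (-1.19 ± 0.11). Alternative respiration gave 2 higher and 2 lower of 10, among them NDA1, a mitochondrial NADH dehydrogenase (1.36 ± 0.11), and AOX1A, the alternative oxidase (-0.64 ± 0.16), and each count fell to 1 without any 1 of several libraries. Stomatal genes gave 3 higher and 1 lower of 13, including MYB60 and FAMA of guard cells (0.54 ± 0.10 and 0.43 ± 0.11) and TMM, of the stomatal lineage (-0.83 ± 0.15), with 3 lower without control replicate 2. Flower markers had none of 9 called by limma (1 lower at an unadjusted p under 0.05), with 6 lower once 4-cycle replicate 2 was left out. Of 59 long non-coding RNA genes 6 were higher and 13 lower, and of 40 antisense ones 7 and 11, against 14.6% higher and 25.4% lower among all genes. Antisense reads cannot be told from those of the gene on the other strand. Counts in the floral check were 3 higher and 0 lower cell cycle, 0 higher and 0 lower folding, 1 higher and 2 lower RNA chaperone, 0 higher and 5 lower SR, 1 higher and 0 lower respiration, 0 higher and 1 lower stomatal genes and 0 higher and 2 lower flower marker genes. BZIP28, BZIP60, SR45A, AOX1A, MYB60, FAMA and TMM lost their calls in it (adjusted p from 0.076 to 0.153).

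**Figure D3:**
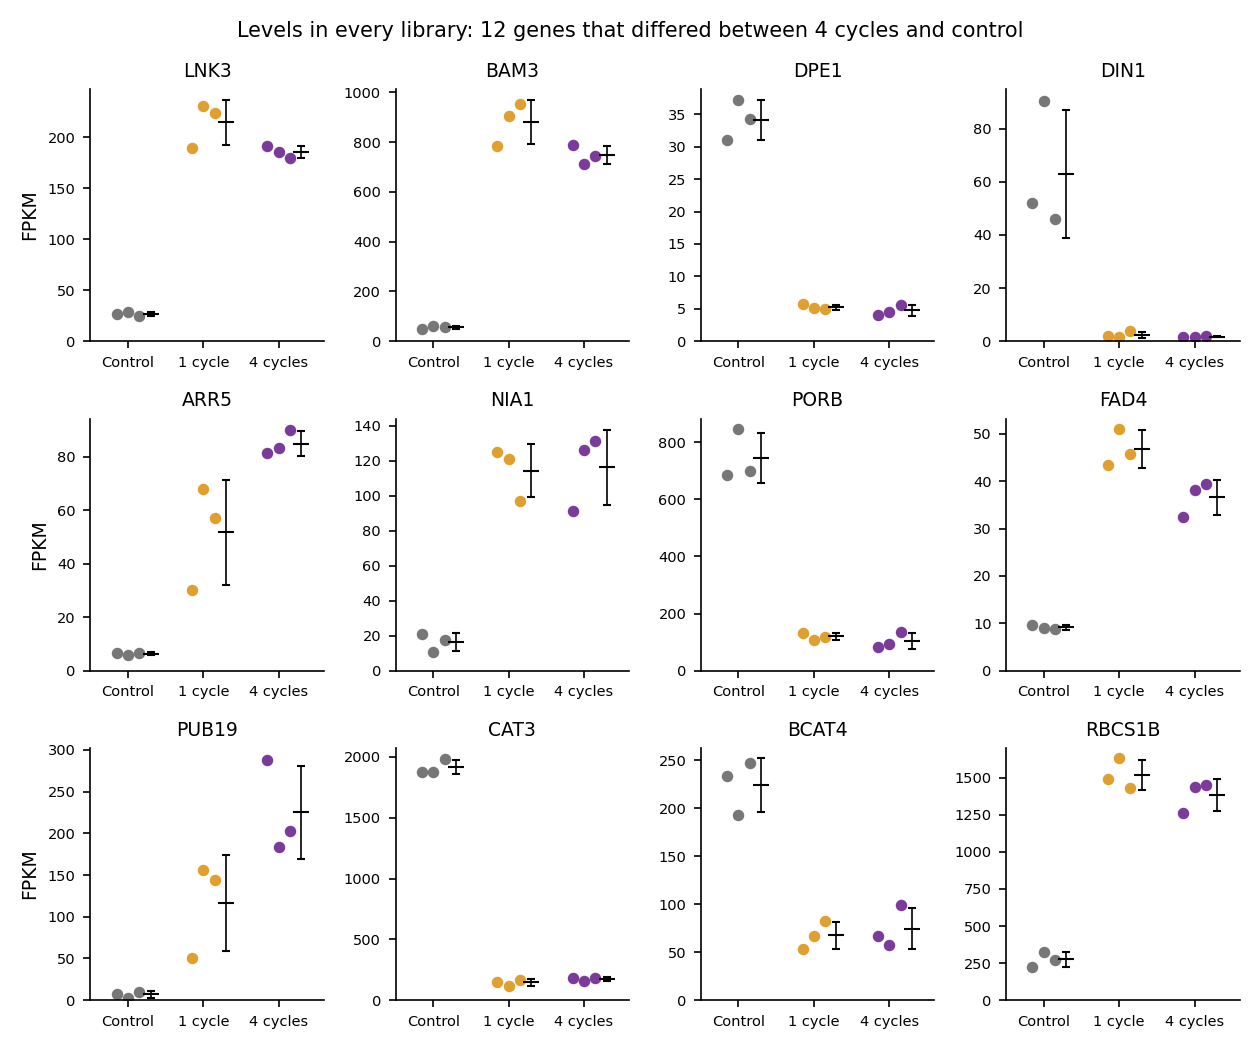
FPKM of 12 genes in each library of control, 1 cycle and 4 cycles (points), with mean and SD beside them (n = 3). Control and 4-cycle libraries do not overlap in any panel: BAM3, for instance, lies at 49.9 to 59.8 FPKM in control and 714 to 788 FPKM after 4 cycles, and CAT3 at 1880 to 1980 FPKM and 157 to 184 FPKM.

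Some promoter motifs differed in share between genes by call. The evening element stood in 2.40% of the promoters of genes not called, 3.14% of higher genes and 5.0% of lower genes. Among genes with a log2 difference of at least 2 it stood in 8.62% of 174 higher and 15.5% of 193 lower genes. The CAMTA box, bound by calmodulin-binding activators, stood in 2.5% of genes not called, 3.46% of higher and 2.00% of lower genes, and in 7.47% and 2.07% of those strongly higher and lower. G-box shares were 8.29% for genes not called, 16.7% for strongly higher and 14.5% for strongly lower genes. The CRT/DRE core, to which the CBF factors bind, did not follow the calls, at 16.4%, 16.4% and 16.6% of genes not called, higher and lower and 15.5% and 16.1% of those strongly higher and lower. W-box shares were 14.4%, 13.6% and 14.3% of genes not called, higher and lower and 14.9% and 10.9% of those strongly higher and lower. The telo box and the site II motif, known from ribosomal and cell cycle genes, stood in 6.31% and 21.4% of genes not called but in 2.30% and 4.60% of strongly higher and 1.55% and 9.33% of strongly lower genes. Shares are descriptions with no test, and motifs that share letters can overlap.

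**Figure D4:**
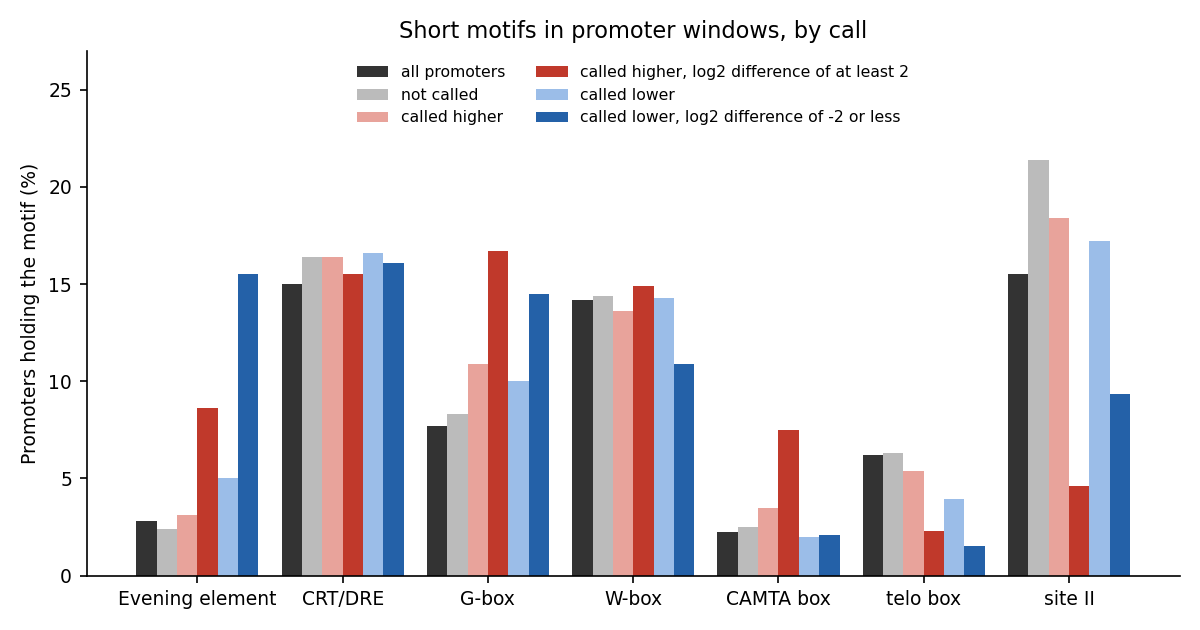
Share of promoter windows of 300 bases that hold each of 7 motifs on either strand (bars, percent, from 0), for all 27443 promoters and by call of the 4-cycle comparison with control. The evening element bar is highest for strongly lower genes (15.5%), the CAMTA box bar for strongly higher genes (7.47%), and the CRT/DRE bars are nearly level.

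Few genes were called between 4 cycles and 1 cycle. Of the same 17474 genes 218 were called between 4 cycles and 1 cycle (1.25%), 130 higher (0.744%) and 88 lower (0.504%), with 3479 at an unadjusted p under 0.05. Both contrasts use the 4-cycle libraries, so their calls are not independent. Of these genes 160 were also called against control: 51 were higher than control and lower than after 1 cycle, 78 lower than control and higher than after 1 cycle, 20 higher and 11 lower than both. ELIP2, XTH18 and RD28 were among those above control but below 1 cycle (-1.55 ± 0.19, -1.21 ± 0.13 and -1.27 ± 0.19 against 1 cycle), and CCL, ORE1 and GID1C among those below control but above 1 cycle (1.00 ± 0.11, 1.37 ± 0.11 and 0.55 ± 0.09). These counts were fragile, and their balance turned with scaling: median-of-ratios scaling gave 124 higher and 240 lower genes, and quantile normalization 89 and 152. The number called was 13 without 1-cycle replicate 3, 123 without 1-cycle replicate 2, 34, 125 and 103 without 4-cycle replicates 1, 2 and 3, and 91 and 78 without control replicates 1 and 3. It was 5 when the 6 libraries of the 2 groups compared were fitted alone, and 0 by limma in the floral check (4184 at an unadjusted p under 0.05).

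The 12 genes with the largest such differences took several courses. EXLA1, an expansin-like protein, was at 2.45, 3.61 and 4.22 FPKM in control, 219, 130 and 155 FPKM after 1 cycle and 17.7, 32.8 and 39.7 FPKM after 4. PHI-1, annotated as EXORDIUM LIKE 1, was at 1.82, 1.55 and 6.23 FPKM, then 232, 217 and 309 FPKM, then 59.1, 79.5 and 63.5 FPKM. In both the 4-cycle libraries lay between the other groups without touching either. ERD5, proline dehydrogenase, and AT4G16563, of the aspartyl protease family, showed the same order. AT1G68600, of the malate transporter family, had its lowest levels after 1 cycle, at 5.76, 6.18 and 6.15 FPKM, against 95.3, 55.2 and 66.1 FPKM in control and 24.8, 33.7 and 18.5 FPKM after 4 cycles. EXPA8, an expansin, and AT3G14280, for an uncharacterized protein, had that order too. Higher after 4 cycles than in either other group were WRKY60, at 5.56, 3.4 and 4.63 FPKM in control, 8.83, 3.09 and 3.54 FPKM after 1 cycle and 25.8, 16.9 and 14.8 FPKM after 4, AT2G44380, with a C1 domain, and the defensin-like AT3G05727. Lower than in either were AT4G36850, a PQ-loop membrane protein, and DIN10, a putative galactinol-sucrose galactosyltransferase. The calls against control of EXPA8, AT3G05727 and ERD5 (adjusted p = 0.0435, 0.0408 and 0.0364) were lost without any 1 of several libraries, up to 0.114, 0.14 and 0.123. EXPA8, AT2G44380, AT3G05727, WRKY60, AT4G16563, AT4G36850, DIN10 and ERD5 lost their calls in the floral check (adjusted p from 0.106 to 0.336). AT3G14280, EXLA1 and DIN10 overlap genes on the other strand.

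**Figure D5:**
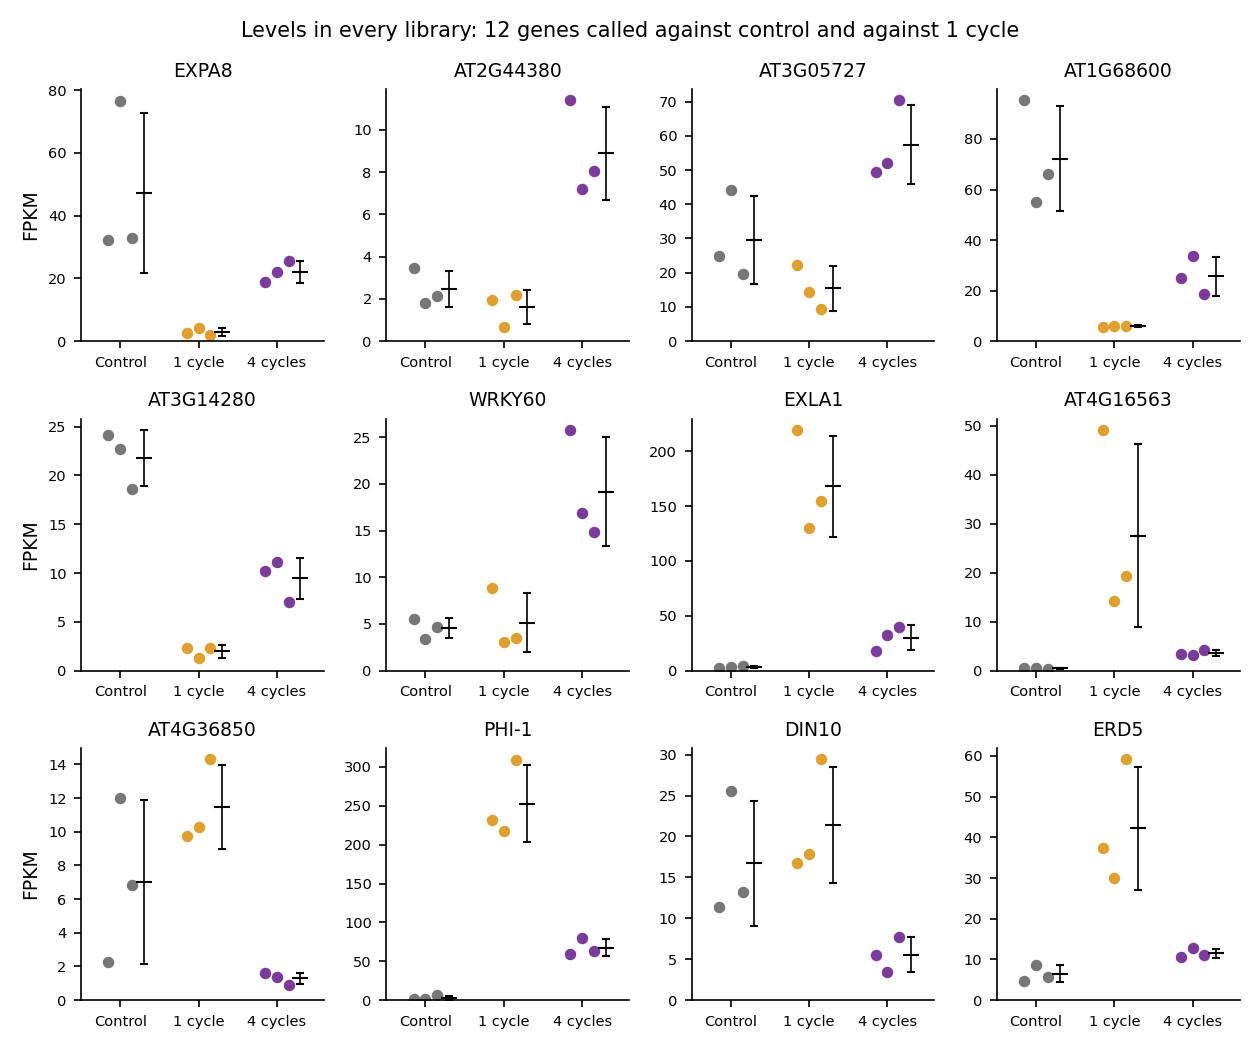
FPKM in each library of control, 1 cycle and 4 cycles (points) with mean and SD (n = 3) for the 12 genes with the largest differences between 4 cycles and 1 cycle among those called in both contrasts. EXLA1 and PHI-1 peak after 1 cycle, WRKY60 and AT2G44380 are highest after 4 cycles, and AT1G68600 and AT3G14280 are lowest after 1 cycle.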

How the data were processed

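RNA from 9 shoot libraries, 3 a group, was analysed, and the 6 of control and 4 cycles carry the main comparison. The deposited values are FPKM per gene, made by the authors with TopHat, Cufflinks and Cuffdiff per the submitters' processing notes, which give no versions here; libraries used 0.5 µg of total RNA per the labels' protocols. The genome build and use of strand are not given in the sources used here. FPKM are not counts, so limma 3.58.1 (R 4.3.3) was fitted to log2(FPKM + 1) with 1 mean per group over all 9 libraries, a trended prior (3.21 prior degrees of freedom) and Benjamini-Hochberg adjustment over the 17474 genes with at least 1 FPKM in at least 3 of the 6 libraries. Fold changes on this scale understate changes of low genes. FPKM steps came out as whole reads for 98.6% of genes within 0.01, which gave the depths, and errors from them cover counting error only.

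Genes were called at an adjusted p under 0.05. Named genes are the 12 largest rises and falls without overlap and with a mean of at least 5 FPKM in the higher group, the 8 largest gains and losses of FPKM, the 6 highest and 6 lowest differences from 1 cycle among genes called in both contrasts under the same limits, all or the 4 best-supported called members of each list and direction, and the markers; the text describes a selection of list members and, outside this rule, BAM4, BAM5, PORC, LHCB4.1 and LHCB5. Members and lists were chosen with earlier results of these data known, and genes named APG for albino or pale green phenotypes and 1 other wrongly matched gene were removed from the autophagy list after values were seen. Alternatives were other pseudocounts, filters and scalings, no trend, a replicate block, the 6 libraries alone, each library left out and the floral check.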

Additional observations from a re-analysis of the deposited data

Results flagged for a closer look

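The contrast of 4 cycles with 1 cycle compares these groups directly, although day and plant age differ along with the number of cycles. The 12 genes below were named for the largest differences among genes called in both contrasts, so their calls restate that choice. On the log2 scale, 4 cycles minus 1 cycle, EXPA8 differed by 2.58 ± 0.33 (SE), AT2G44380 by 1.95 ± 0.27, AT3G05727 by 1.89 ± 0.34, AT1G68600 by 1.88 ± 0.23, AT3G14280 by 1.81 ± 0.20 and WRKY60 by 1.79 ± 0.33. The limma adjusted p of these 6 were 0.0137, 0.0198, 0.0363, 0.0132, 0.0125 and 0.0422. EXLA1 differed by -2.48 ± 0.30, AT4G16563 by -2.46 ± 0.36, AT4G36850 by -2.43 ± 0.41, PHI-1 by -1.89 ± 0.35, DIN10 by -1.79 ± 0.34 and ERD5 by -1.74 ± 0.25. Their adjusted p were 0.0132, 0.0201, 0.0332, 0.0422, 0.0458 and 0.0201. None of the 12 was called in the floral check, where no gene was called between 4 cycles and 1 cycle by limma (4184 at an unadjusted p under 0.05).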

How the results depend on the processing

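Against control, the number of genes called stayed within 1.5 times of 6989 under every alternative run except the floral check, chosen after seeing the data, with 3273 called, 1514 higher and 1759 lower. It ranged from 5355 to 6951 without single libraries and was 6272 with the 6 libraries of control and 4 cycles alone. Every gene called against control in both the main fit and an alternative run kept its direction, and no call of a named gene reversed. For called genes without overlap this was fixed in advance wherever libraries were only left out. Of 281 named genes 90 lost their call in the floral check, 13 with median-of-ratios scaling, 21 with no filter, and 6 to 29 without a single library. Replicate numbers were not taken as pairs, since no label ties them to a shared batch and not every pair's correlation was over 0.1: deviations of same-numbered control and 4-cycle libraries correlated at 0.38, 0.47 and 0.04. Of these 6 libraries 4 correlated best with their own number, a hint from the data and not from the design. A fit with the replicate block called 7958 genes against control, and 699 between 4 cycles and 1 cycle, 474 higher and 225 lower. That second contrast, with 218 calls, moved with many choices. With no filter 112 were called, 59 higher and 53 lower; with median-of-ratios scaling 364, of which 240 lower; with quantile normalization 152 lower; with a pseudocount of 5, 84 higher; with 6 libraries alone 5, 2 higher and 3 lower; in the floral check 0 in either direction. Without single libraries it ranged from 13 to 205, higher genes from 9 to 135 and lower genes from 4 to 81. The cause was not tested. With a shorter evening element core of 8 letters, AAATATCT, 6.57% of higher and 9.39% of lower genes held it, since a shorter core matches more often. Depth limits genes near 1 FPKM, where counting alone gives an error of 17.7%.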
